A study of Mus musculus with 6 samples.

Results

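Annexins, S100 proteins and clusterin were followed in the pancreas of mice with and without Cftr. The 10 genes were chosen by name, with earlier results of these data known: Anxa1, Anxa2, Anxa3, Anxa4, Anxa5, S100a6, S100a10, S100a11, Clu and Spp1. Counts of members set beside shares of all probe sets below are therefore descriptions and no test of an excess. Of the 12488 probe sets on the array, 13 were assigned to these genes by the platform annotation, and they covered 9 of the 10 genes. No probe set in that annotation carried the symbol Spp1, the gene of the injury-associated matrix protein osteopontin, which was not analysed here. The only S100a11 probe set is also assigned to an S100a11 pseudogene and to Gm12854, so its values are given as those of a shared probe set. Of the 13, 12 passed the filter on dim signals and entered the test, while 1 of the 3 for Anxa1 did not.

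Total RNA was taken from the pancreas of single male mice aged 56 to 58 days and read on 6 one-colour oligonucleotide arrays, 1 mouse per array. The 3 control mice were CFTR+/+ and the 3 others CFTR-/-, called CF here, and all 6 carried 1 working gastrin allele (gastrin+/-). All had a background of 95% black6 and 5% 129Sv, and all ate Peptamen, a peptide-based liquid diet, from 10 days of age to keep the gut open. The question was which transcripts of the gland differ when Cftr, the epithelial chloride and bicarbonate channel of cystic fibrosis, is missing. The labels do not describe the kind of Cftr allele. Array titles carry no suffix, B or P in both groups, called replicates 1, 2 and 3. Of 17 acinar markers, 11 had a probe set, and their summed intensity was between 709130 and 1047100 on every array, so the labelled tissue was borne out on all 6. For control replicate 1 the label speaks of the entire gland.

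Annexins are cytosolic proteins that bind acidic phospholipids when calcium is present, and they take part in membrane repair, exocytosis and endocytosis. S100 proteins are small calcium sensors that pair with them: S100a10 binds Anxa2 in a complex at the plasma membrane, and S100a11 binds Anxa1. In the exocrine pancreas several of these genes are low in resting acinar cells and high in ducts, connective tissue and damaged epithelium. Clusterin is a secreted chaperone that binds unfolded proteins and rises in many injured epithelia, including the inflamed pancreas.

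None of these genes passed the test for a difference between CF and control pancreas. In limma, 0 of the 12 tested probe sets had a Benjamini-Hochberg adjusted p under 0.05, where 5 of all 7737 probe sets tested did, or 0.0646%, all of them higher in CF (0.00% lower), and the members' adjusted p ran from 0.534 to 0.970. At an unadjusted p under 0.05 there were 2 of 12, against 7.38% of all probe sets tested: Anxa2 was lower in CF (3.11% of all) and Clu higher (4.27% of all). Arrays of the same title suffix deviated together, and a fit with that suffix as a replicate block gave 7 of 12 at an unadjusted p under 0.05 against 11.7% of all probe sets, with 5 lower (5.67% of all) and 2 higher (6.06% of all). After adjustment, 0 members passed in that fit too, with a lowest adjusted p of 0.190 for S100a6, while 0.129% of all probe sets did. Of the 12 probe sets, 8 were lower in CF by any amount, as were 49.9% of all tested, and 4 were higher. Their median log2 difference was -0.33, where the median over all tested was 0.0009. Leaving out control replicate 1 gave a median of -0.05, and leaving out control replicate 2 gave -0.75.

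**Figure D1:**
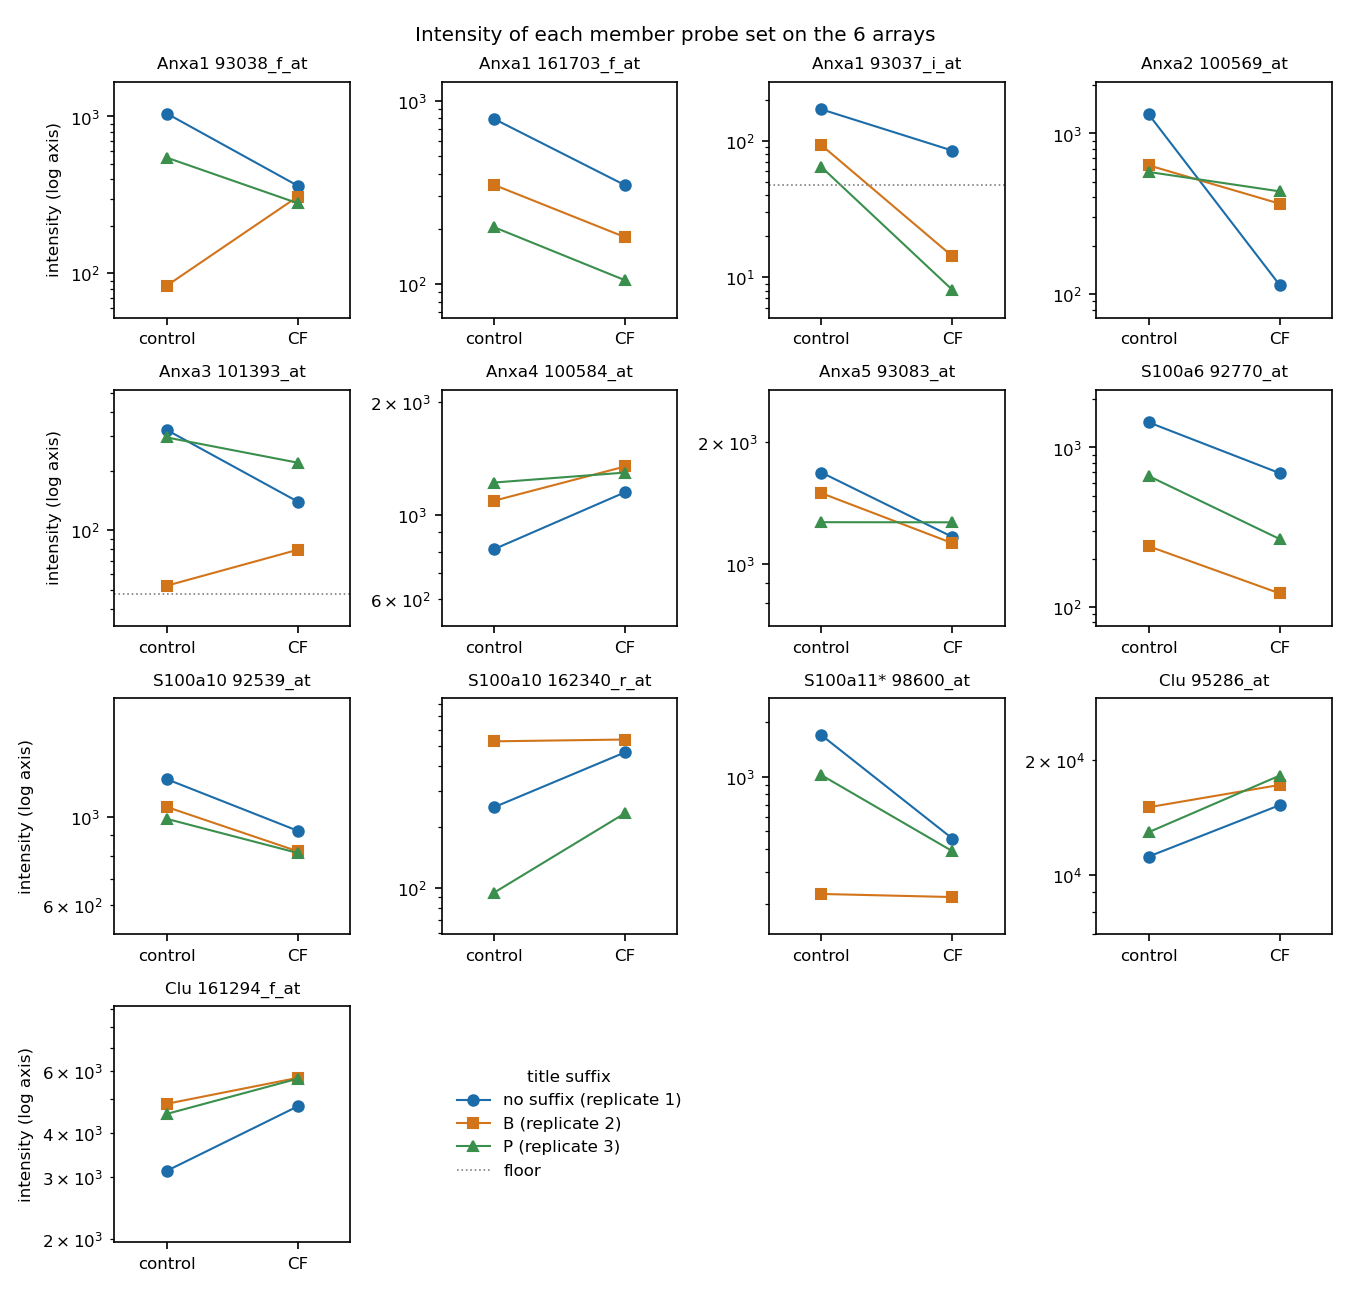
Intensity (log axis) of the 13 probe sets on each array, with control on the left and CF on the right of each panel, a line joining arrays of the same title suffix and a dotted line, in panels that reach it, at the floor of 47.7 (the intensity to which lower values were raised). Both Clu panels slope upward for all 3 pairs, S100a6 and the brighter S100a10 panel downward for all 3; the asterisk marks the probe set shared with other genes.

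Anxa2, the calcium-dependent membrane-binding partner of S100a10, had the largest difference among the annexins. Its probe set 100569_at gave 1318, 633 and 576 for the control mice, in the order of replicates 1 to 3, then 114, 365 and 436 for the CF mice. All 3 CF values lay below all 3 control values, with CF replicate 1 far under the other two. The means were 842 ± 413 and 305 ± 169 (SD, n = 3 per group), a 2.98-fold lower level in CF on the scale of mean log2 values (log2 difference -1.58 ± 0.53 SE, 95% interval -2.77 to -0.38, limma adjusted p = 0.534). The log2 difference was -3.53 in the pair without a suffix, -0.79 in pair B and -0.40 in pair P, so the first pair held most of it. Without CF replicate 1 the difference was -0.97 (adjusted p = 0.741).

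Anxa5, the annexin used as a probe for exposed phosphatidylserine on dying cells, varied little. It read 1682, 1496 and 1269 in controls and 1167, 1126 and 1268 in CF. The groups did not overlap, but the lowest control and the highest CF array, both of suffix P, were 1268.6 and 1267.7. The log2 difference was -0.31 ± 0.18 (95% interval -0.71 to 0.09, limma adjusted p = 0.738). Anxa4, an annexin of secretory epithelia, measured 812, 1092 and 1221 in controls and 1150.4, 1347 and 1298 in CF. Its control and CF values overlapped, while CF was the higher in each pair, by 0.50, 0.30 and 0.09 on the log2 scale. Its log2 difference was 0.30 ± 0.20 (95% interval -0.16 to 0.76, adjusted p = 0.798), or 0.13 without control replicate 1.

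Anxa1, which restrains inflammation through formyl peptide receptors, was lower in CF in each pair on 2 of its 3 probe sets and of mixed direction on the other. On 161703_f_at it read 795, 347 and 204 in controls and 346, 179.8 and 105 in CF, with log2 differences of -1.20, -0.95 and -0.96 in the 3 pairs. The groups overlapped all the same, since the pairs lay far apart in level (log2 difference -1.04 ± 0.58, 95% interval -2.35 to 0.28, limma adjusted p = 0.738). It was -0.51 without control replicate 1 and -0.62 without CF replicate 3. On 93038_f_at the values were 1044, 83.5 and 547 in controls and 362, 309 and 279.9 in CF. There CF lay inside the control range, which spanned 12.5-fold, and the pairs split into 2 lower and 1 higher (log2 difference -0.20 ± 0.78, 95% interval -1.98 to 1.57, adjusted p = 0.970). Leaving out control replicate 1 turned it to 0.56, and leaving out control replicate 3 to 0.09, while without control replicate 2 it was -1.26. The untested probe set, 93037_i_at, read 171, 93.5 and 64.6 in controls and 85.2, 14.3 and 8.1 in CF, with CF replicates 2 and 3 under the floor of 47.7. Its groups overlapped, and with values raised to the floor the pairs differed by -1.01, -0.97 and -0.44 on the log2 scale. In the maker's naming of probe sets, f marks probes that match a family of related sequences and i a set with fewer unique probes than usual.

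Anxa3, an annexin of neutrophils and proliferating epithelia, was dim. It read 323, 52.3 and 296 in controls and 139.7, 79.6 and 220.2 in CF. In both groups replicate 2 was the lowest array, and the groups overlapped. The log2 difference of -0.34 ± 0.75 (95% interval -2.05 to 1.36, limma adjusted p = 0.954) changed sign when any of 3 arrays was left out, to 0.12 for control replicate 1, 0.05 for control replicate 3 and 0.04 for CF replicate 2. It was -1.20 without control replicate 2.

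S100a6, calcyclin, a calcium sensor abundant in fibroblasts and proliferating cells, was lower in CF by a similar ratio in each pair. It read 1438, 241 and 663 in controls and 691, 122 and 267 in CF. Within each pair the CF array was lower, with log2 differences of -1.06, -0.98 and -1.31, yet the groups overlapped because control arrays spanned 5.98-fold and CF arrays 5.67-fold. The means were 781 ± 608 and 359.9 ± 296 (log2 difference -1.12 ± 0.74, 95% interval -2.79 to 0.56, limma adjusted p = 0.794). With the replicate block the SE was 0.21 and the adjusted p 0.190. Single arrays weighed on the size: it was -0.50 without control replicate 1 and -0.51 without CF replicate 2, against -1.79 without control replicate 2 and -1.76 without CF replicate 1.

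S100a10, the Anxa2-binding S100 protein that lacks calcium binding of its own, was read by 2 probe sets that pointed opposite ways. On 92539_at it measured 1246, 1061 and 990.4 in controls and 924, 821 and 813 for CF. Each CF array lay under each control array, with a small gap between 924 and 990.4 (means 1099 ± 132 and 853 ± 62.2, log2 difference -0.36 ± 0.18, 95% interval -0.77 to 0.05, limma adjusted p = 0.708). On 162340_r_at, whose r marks a set built with relaxed probe selection rules, the values were 249.9, 527 and 95 in controls and 465, 538 and 234 in CF. Here CF was the higher in each pair, by 0.90, 0.03 and 1.30, while the groups overlapped (log2 difference 0.74 ± 0.60, 95% interval -0.62 to 2.11, adjusted p = 0.840). Leaving out control replicate 3 brought this to 0.10, and leaving out control replicate 2 to 1.33.

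The shared S100a11 probe set, 98600_at, read 1689, 226 and 1018 in controls and 456, 217 and 389 in CF. S100a11 encodes the S100 partner of Anxa1. The log2 difference was -1.89 in replicate 1 and -1.39 in replicate 3 but -0.06 in replicate 2, and the groups overlapped. The means were 978 ± 733 and 354 ± 123 (log2 difference -1.11 ± 0.66, 95% interval -2.61 to 0.39, limma adjusted p = 0.764). Without control replicate 2 the difference was -1.96 with an adjusted p of 0.160, the lowest of any member under any alternative, and without control replicate 1 it was -0.51.

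Clu, the secreted chaperone, was the brightest member and measured higher in CF on both probe sets. On 95286_at it read 11161, 15047 and 12934 in controls and 15236, 17226 and 18225 for the CF mice. Every CF value exceeded every control value, the nearest being 15236 and 15047. The means were 13047 ± 1946 and 16896 ± 1522, a 1.30-fold higher level in CF (log2 difference 0.38 ± 0.16, 95% interval 0.02 to 0.74, limma adjusted p = 0.666). On 161294_f_at it read 3119.7, 4845 and 4534 in controls and 4765, 5746 and 5715 in CF. There the groups overlapped, by CF replicate 1 against control replicate 2 (log2 difference 0.40 ± 0.19, 95% interval -0.04 to 0.84, adjusted p = 0.700). Both sets were higher in CF in each pair, by 0.45, 0.20 and 0.49 on the first and 0.61, 0.25 and 0.33 on the second. Without control replicate 1 the second set differed by 0.20. The first set's unadjusted limma p of 0.040 depended on the processing. It was 0.124 with quantile normalization (log2 difference 0.25) and 0.110 with no intensity trend.

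**Figure D2:**
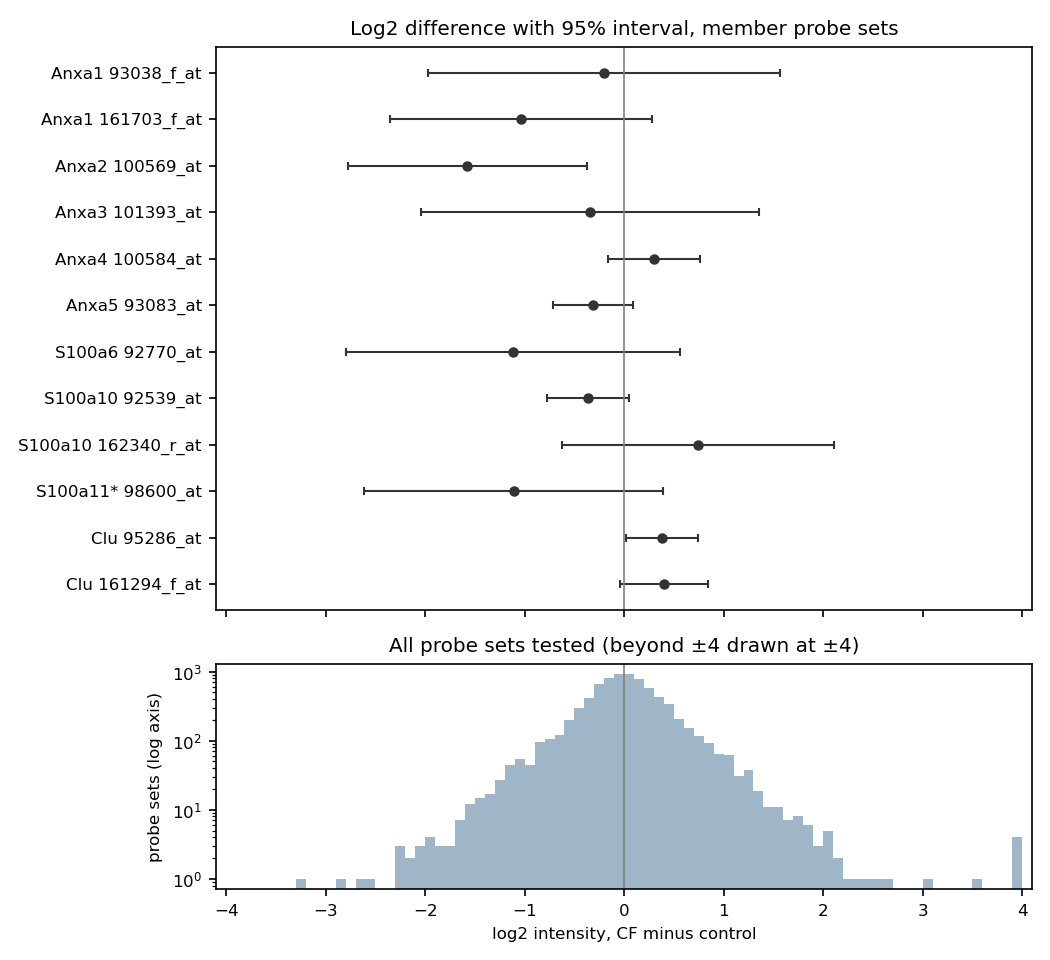
Upper panel, log2 difference between CF and control (CF minus control) of the 12 tested probe sets, with 95% intervals from limma as bars; lower panel, number of probe sets (log axis) at each log2 difference among all 7737 tested. The intervals of Anxa2 (-2.77 to -0.38) and of the brighter Clu probe set (0.02 to 0.74) leave out 0 before adjustment; the other 10 include it.

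Over the members, the groups did not overlap for 4 of the 12 tested probe sets, against 13% of all tested. In CF 3 of these were lower (Anxa2, Anxa5 and the brighter S100a10 set; 5.62% of all tested) and 1 was higher (the brighter Clu set; 7.37% of all tested). Within the pairs, 6 of 12 were lower in CF in all 3, against 17.4% of all tested, and 4 of 12 were higher in all 3, against 17.8%. The 2 with pairs of both directions were Anxa3 and Anxa1 on 93038_f_at. S100a10 is in both counts, through its 2 probe sets. Pairs that hardly differed count as well: -0.001 for Anxa5 (P), -0.06 for the shared S100a11 set (B) and 0.03 for the dimmer S100a10 set (B). Probe sets of the same gene share its RNA, so these counts hold fewer genes than probe sets. As the members were chosen with results of these data known, the counts do not test for an excess.

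**Figure D3:**
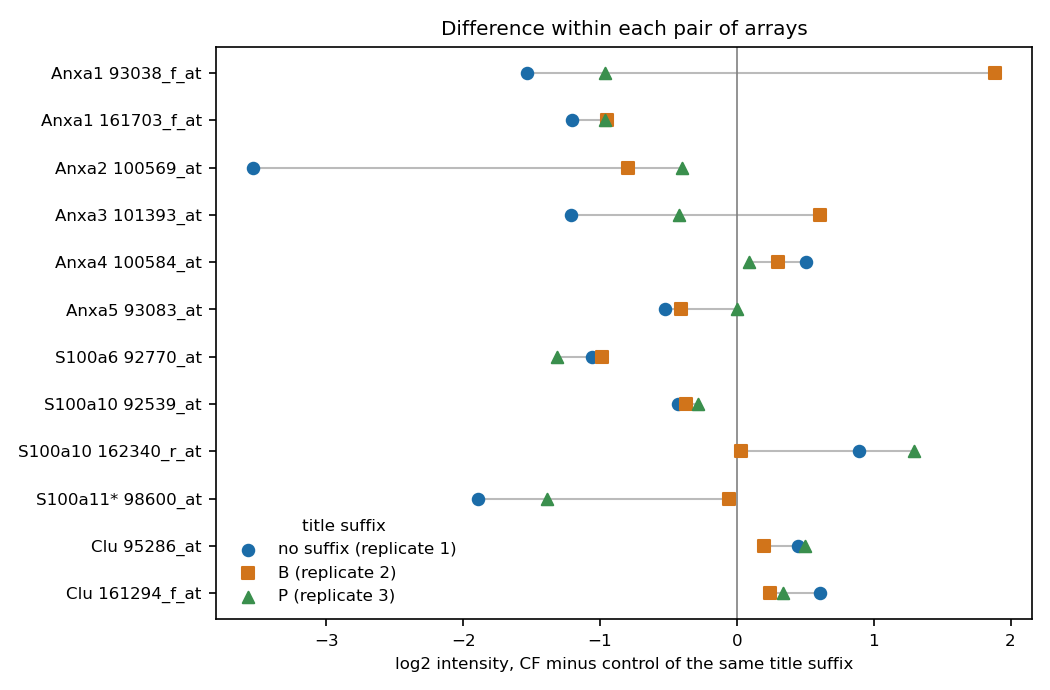
Log2 difference between the CF and the control array of the same title suffix, 1 point per pair, for the 12 tested probe sets, with values under 47.7 raised to it. S100a6 lay between -1.31 and -0.98 in all 3 pairs, whereas Anxa2 ran from -3.53 to -0.40 and Anxa1 on 93038_f_at from -1.53 to 1.89.

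Promoter sequences are shown for 4 of the members that measured lower in CF, without passing the test, to give the letters next to their starts. RefSeq's table for build GRCm38.p6 held 7 starts of 6 of the 9 measured genes, Anxa1, Anxa2, Anxa4, Anxa5, S100a6 and S100a11. Anxa5 also measured lower in CF, but its window, not shown, held none of the 8 letter patterns searched. The 250 bases before the start are written 5′ to 3′ along the gene, and capitals mark the AP-1 letters TGANTCA, the TATA box letters TATAAA and the heat shock element letters GAANNTTC.
Anxa1 (chr19:20390672-20390921, - strand): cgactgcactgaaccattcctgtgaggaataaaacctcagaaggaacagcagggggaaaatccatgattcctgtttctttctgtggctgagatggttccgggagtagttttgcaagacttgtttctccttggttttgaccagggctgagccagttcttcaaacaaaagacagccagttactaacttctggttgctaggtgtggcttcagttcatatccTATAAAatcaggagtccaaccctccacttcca
Anxa2 (chr9:69453433-69453682, + strand): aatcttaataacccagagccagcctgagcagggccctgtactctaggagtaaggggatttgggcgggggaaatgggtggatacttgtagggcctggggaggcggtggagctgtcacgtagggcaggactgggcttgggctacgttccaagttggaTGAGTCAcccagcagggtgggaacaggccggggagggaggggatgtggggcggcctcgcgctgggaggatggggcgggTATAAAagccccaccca
S100a6 (chr3:90612644-90612893, + strand): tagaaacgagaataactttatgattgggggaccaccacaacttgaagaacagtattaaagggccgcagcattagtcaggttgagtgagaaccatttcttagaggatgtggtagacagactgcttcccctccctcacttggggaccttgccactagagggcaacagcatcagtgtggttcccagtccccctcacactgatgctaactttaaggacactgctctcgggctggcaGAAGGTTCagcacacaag
S100a11 (chr3:93520246-93520495, + strand): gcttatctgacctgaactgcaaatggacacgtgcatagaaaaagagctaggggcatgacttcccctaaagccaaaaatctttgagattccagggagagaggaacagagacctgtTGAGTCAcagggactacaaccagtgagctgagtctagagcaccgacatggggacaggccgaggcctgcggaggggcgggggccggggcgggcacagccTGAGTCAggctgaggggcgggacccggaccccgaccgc

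The AP-1 letters, bound by Fos and Jun proteins, stood once before the start of Anxa2, with the first base 95 bases before it, and at 2 places before S100a11, 136 and 38 bases before it. Of 32851 promoter windows of this length, 6.75% held them. The TATA box letters stood 32 bases before the Anxa1 start and 17 bases before that of Anxa2, and 12.4% of all windows held them. The heat shock letters stood 18 bases before the S100a6 start, against 6.69% of windows. Both strands were read, and the AP-1 and heat shock letters found here read the same pattern on both. Further letters searched were CCAAT (33.8% of windows; in S100a6, on the opposite strand), GGGCGG (32.7%; 3 times each in Anxa2 and S100a11), TTCNNNGAA of STAT factors (7.02%; in none of the 7 windows), the NF-kB element (0.356%; in 1 of the Anxa4 windows) and CACGTG (6.02%; in S100a11). These are matches of letters only.

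The other annexins and S100 genes gave 0 calls among 8 tested genes. Of 7 other annexins, 2 were tested. Anxa7, an annexin of secretory vesicles, read 65.3, 319.8 and 411 in controls and 376, 299 and 412 in CF (log2 difference 0.81 ± 0.63, limma adjusted p = 0.823), with only control replicate 1 apart from the rest. Anxa6, a large annexin with a doubled core, differed by -0.13 ± 0.21 (adjusted p = 0.933). Of 12 other S100 genes, 6 were tested, 4 of them lower and 2 higher in CF by any amount (median log2 difference -0.18). S100a5, which lies next to S100a6 in RefSeq's gene order, read 159, 249 and 184 in controls and 64.1, 199.9 and 89.5 in CF. It was lower in CF in each pair with overlapping groups (log2 difference -0.89 ± 0.53, adjusted p = 0.767). S100a13 differed by -0.21 ± 0.17 on its brightest probe set, by -0.67 ± 0.24 on another (limma adjusted p = 0.561) and by -0.20 ± 0.53 on the last. S100a14 and S100a3 differed by 0.17 ± 0.20 and 0.17 ± 0.21. S100a10 and S100a11 are also direct neighbours in that order.

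Genes whose products bind or follow these proteins gave 0 calls as well. Among 8 tested partners of annexins and S100 proteins, 6 were lower in CF (median -0.23). Ahnak, the large membrane scaffold that binds the Anxa2 and S100a10 complex, read 2283, 345 and 1364 in controls and 782, 304 and 677 in CF. It was lower in CF in each pair, with overlap between the groups (-0.91 ± 0.65, limma adjusted p = 0.808), and replicate 2 was its lowest array in both. Ctsb, the lysosomal protease that binds S100a10, differed by -0.29 ± 0.18, Cacybp, the S100a6-binding protein, by -0.31 ± 0.35 and Plg, plasminogen, by -0.21 ± 0.26 (0.16 ± 0.49 on another probe set). Of 4 tested osteopontin receptors, 3 were lower (median -0.19), with the integrin chains Itgb5 at -0.35 ± 0.26, Itgb1 at -0.19 ± 0.16, Itga4 at -0.20 ± 0.43 and Itgav at 0.03 ± 0.17 (-1.26 ± 0.62 on another probe set). Of 5 tested clusterin receptors and terminal complement genes, 3 were lower (median -0.23). They were Vtn, vitronectin (-0.44 ± 0.23), the terminal complement gene C8g (-0.23 ± 0.34) and the endocytic receptor Lrp2 (-0.73 ± 0.63). Lrp2 read 215.6, 270.7 and 214.1 in controls and 215.9, 265.9 and 38 in CF, with CF replicate 3 under the floor. Its log2 difference was -2.17 in replicate 3 but 0.002 in replicate 1 and -0.03 in replicate 2, so that 1 array held it. C9, the last component of the membrane attack complex, differed by 0.72 ± 0.47.

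Other genes of injury and ductal metaplasia showed no common direction. Of 35 listed, 18 were tested, with 8 higher and 10 lower in CF and a median of -0.005, and 0 passed in limma. Krt18, a keratin of simple epithelia, read 3326, 3363 and 3699 in controls and 6069, 4477 and 5487 in CF, with no overlap (0.62 ± 0.16, adjusted p = 0.308). Krt20, another epithelial keratin, read 107, 43.6 and 253 against 369, 360.2 and 315, also with no overlap (1.67 ± 0.57, adjusted p = 0.549). Its value of 43.6, from control replicate 2, lay under the floor and was raised to it for the fit. Tff1, a secreted trefoil peptide, gave 1416, 2324 and 1664 for controls against 1375, 1334 and 1339 for CF, every CF value being the lower (-0.39 ± 0.21, adjusted p = 0.734). Sox4, a transcription factor, differed by -0.20 ± 0.20. At an unadjusted p under 0.05 the list gave 2 of 18 genes, Krt18 and Krt20, both higher, where 7.38% of all probe sets tested passed and 4.27% were higher.

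Markers of other cells of the gland were set beside the members, without a test of how closely they followed each other. In bulk RNA, fewer cells of a type and less RNA per cell cannot be told apart. Adipocyte markers (11 of 13 with a probe set) summed to 5926 to 16024 in controls and 4958 to 6745 in CF. Control replicate 1 was the highest array, as it was for Anxa1, Anxa2, S100a6 and the shared S100a11 set. It was also highest for stellate, macrophage, lymphocyte, smooth muscle, mesothelium and endothelium markers. On control replicate 2, S100a6 (-0.79) and the shared S100a11 set (-1.14) lay below their log2 mean over all arrays. So did adipocyte (-0.29), macrophage (-0.18), stellate (-0.09) and lymphocyte (-0.04) sums. Granulocyte (0.45), mesothelium (0.29), endothelium (0.28) and smooth muscle (0.19) sums lay above theirs. Stellate cell and fibroblast markers (21 of 21) summed to 21011 to 29845 in controls and 17374 to 22010.0 in CF. Macrophage markers (14 of 15) summed to 12391 to 19454 and 11773 to 14233, lymphocyte markers (10 of 11, with Cd3d under the floor on all arrays) to 5271 to 10711 and 2924 to 6450.4, and granulocyte markers (7 of 7) to 7085 to 11344 and 6864 to 8539.6. The sums of 3 lists did not overlap: smooth muscle (8 of 8) at 2704 to 3508 and 1845 to 2375, mesothelium (3 of 8) at 1498 to 1815 and 1021 to 1314, and endothelium (9 of 10) at 2543 to 3065 and 1799 to 2430.4. No share over all probe sets stands beside such sums, and a single gene held the gap of each list. Acta2 read 1007, 330 and 589 in controls and 73.1, 98.7 and 76.7 in CF, and without it the smooth muscle sums overlap. Eng read 1243, 991 and 996 in controls and 424, 690 and 866 in CF, and without it the endothelium sums overlap. Upk3b read 1363, 1139 and 1155 in controls and 956, 1055 and 824 in CF, and without it the mesothelium sums overlap. Duct markers (12 of 15) summed to 17496 to 23348 in controls and 22644 to 27178 in CF, higher in CF like Clu and Anxa4 but with overlap. Muc1 weighed most on these sums, at 7865 to 11893 over the arrays. The mean log2 of the duct markers did not overlap, at 8.93 to 9.13 in controls and 9.40 to 9.51 in CF. Of 10 tested duct genes, 9 were higher in CF and 1 lower. Groups did not overlap for 4, all higher, against 7.37% of all probe sets tested. The duct sum was lowest on control replicate 2, while the duct mean log2, Clu and Anxa4 were lowest on control replicate 1. Islet markers (8 of 10) and Schwann and neural markers (5 of 7) overlapped, at 19232 to 77748 against 22446 to 59505, and at 2621 to 3146 against 2728 to 2844. The part of these cells in the members' differences was not tested.

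Among the markers, 0 genes passed in limma, and the gene of smallest p and the brightest gene of each list read as follows. Acta2, smooth muscle actin, differed by -2.82 ± 0.44 (adjusted p = 0.082) and Mylk by -0.43 ± 0.22. Ms4a1 of B cells differed by -0.95 ± 0.18 (and by 0.00 ± 0.57 on a dimmer probe set) and Ighm by -1.48 ± 0.95 on its brightest probe set, by -0.71 ± 0.72 and -0.59 ± 0.46 on others and by 0.26 ± 0.47 and 0.04 ± 0.60 on those of the opposite sign. Laptm5 of macrophages differed by -0.71 ± 0.20 and C1qb by 0.21 ± 0.15 on its brightest probe set but by -0.95 ± 0.71 on another, and Csf3r of granulocytes by -0.30 ± 0.21, with -0.10 ± 0.45 and 0.68 ± 0.66 on its other probe sets. Col6a2 of fibroblasts differed by -0.72 ± 0.22 and Dcn by -0.32 ± 0.36, Wt1 of mesothelium by -0.91 ± 0.36 and Upk3b by -0.37 ± 0.18, and Eng of endothelium by -0.76 ± 0.28. In fat, Aoc3 differed by -1.18 ± 0.44 and Lep by -0.13 ± 0.17. In ducts, Elf3 differed by 0.92 ± 0.16 and Muc1 by 0.13 ± 0.18, in acinar cells Sycn by -0.30 ± 0.17 and Ctrb1 by -0.24 ± 0.17, in islets Ins2 by -0.29 ± 0.52 and Ppy by 0.18 ± 0.22, and in nerve Mbp by -0.20 ± 0.22 (0.05 ± 0.46 on another probe set) and Sox10 by 0.27 ± 0.22. As a measure of RNA integrity, the 3' to 5' intensity ratio of the Gapdh control probe sets was 1.45 in control replicate 2 and 0.72 to 0.87 on the other 5 arrays. The same ratio for beta-actin was 2.16 in control replicate 2 and 2.14 in CF replicate 2, and 1.74 to 1.94 on the other 4. Control replicate 2 was also the lowest control for Anxa3, S100a6, Anxa1 on 93038_f_at and the shared S100a11 set; the part of RNA integrity was not tested.

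**Figure D4:**
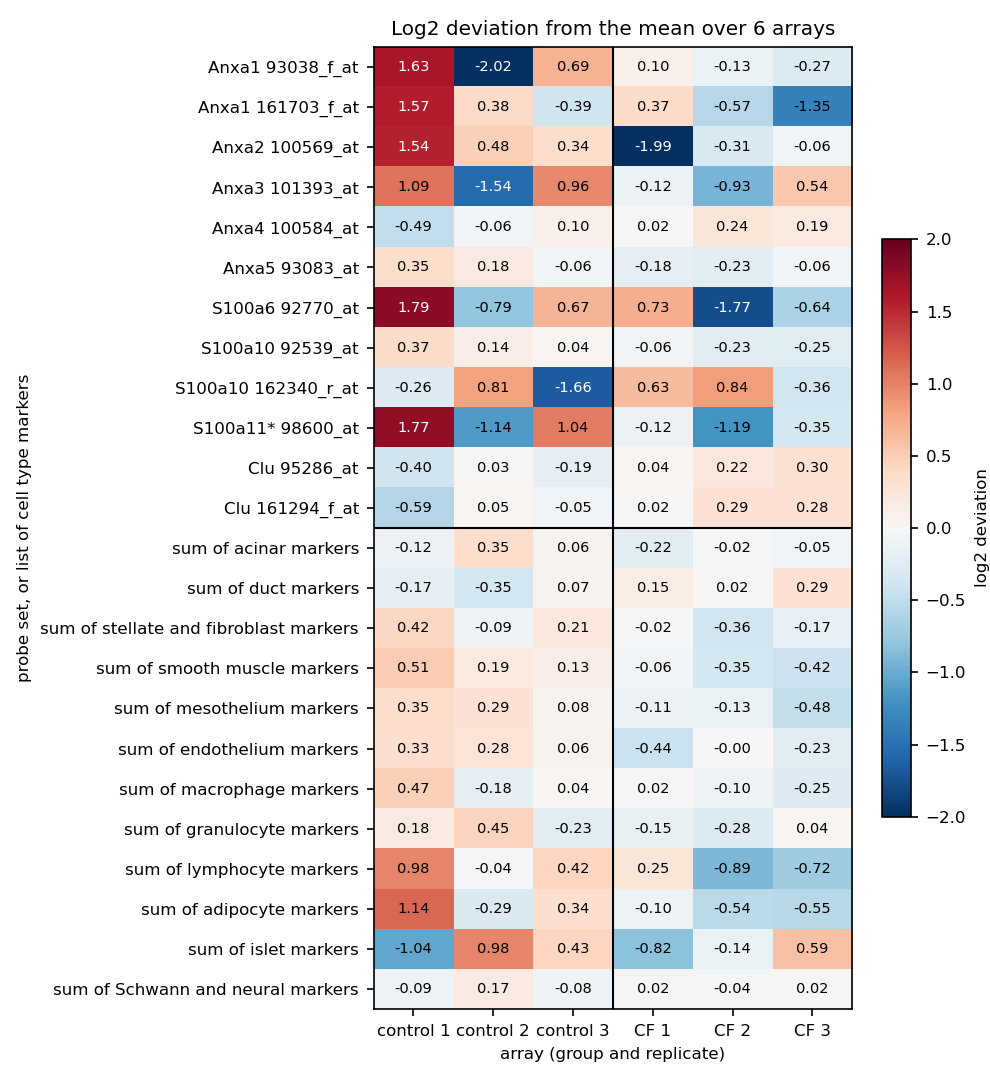
Log2 deviation of each array from the mean over all 6 arrays, for the 12 tested probe sets (above the line) and for the summed intensity of each list of cell type markers (below the line), with red for higher and blue for lower. Control replicate 1 was at 1.79 for S100a6, 1.77 for the shared S100a11 set (asterisk) and 1.14 for the adipocyte sum; replicate 2 of the controls was at -0.79, -1.14 and -0.29.

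The profiles closest to those of Anxa2 and Clu over the 6 arrays were looked up among 5801 genes, with 1 probe set each. With Anxa2, Rpusd4, Usf2, Eng, Cttn and Dnaaf5 had Pearson's r of 0.955 to 0.995, and 43 genes had r above 0.9. With Clu, Gclc, Arpc5l, F11r, Nfkbiz and Ap1ar had r of 0.967 to 0.991, and 38 genes had r above 0.9. With 6 arrays in 2 groups such values describe these arrays only. Of the genes close to Clu, Gclc, which makes the first product of glutathione synthesis, differed by 0.69 between the groups on the log2 scale, and of those close to Anxa2, Eng, the endothelial co-receptor endoglin, by -0.76.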

How the data were processed

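The authors deposited linear intensities, with 1 value for each probe set on each array. How they computed and scaled them is not given in the sources here. With 2% trimmed from each end, array means were 500.27 to 500.30, so arrays were taken as already scaled. Array medians were 207.8 to 234.4, and 0 values were at or below zero. No detection calls were used; the number of arrays limits the precision.

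Groups came from the genotype in the descriptions and replicate numbers from the title suffix. Symbols came from the platform annotation, updated through gene identifiers to RefSeq of GRCm38.p6: 10855 probe sets had 1 symbol, 396 several and 1237 none. The 66 control probe sets were left out. Values under the pooled 20th percentile (47.7) were raised to it and log2 was taken. A probe set was tested if at least 3 of 6 arrays exceeded the pooled 40th percentile (140.4), which left 7737. The contrast of CF minus control was fitted by limma (version 3.58.1, under R 4.3.3), using lmFit, then eBayes with a trend on intensity, without a block, and Benjamini-Hochberg adjustment over all 7737. All p-values and SEs are from this fit unless the block is named. Fold changes are on the floored log2 scale. The fit was tested on simulated data.

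Arrays of the same suffix deviated together from their groups' means (r 0.23 to 0.26), so the suffix, from the titles, was taken to pair the arrays. For arrays of different suffix r was -0.18 to -0.05. Deviations sum to 0 within a group, so positive values for the same suffix force negative ones here, which add no evidence for the pairing. Lists were summarised with 1 probe set per gene, the tested one of highest mean; marker sums used the brightest of all. Named genes were all members, the 4 of smallest p in each pathway list with those that did not overlap, the brightest and smallest-p gene of each marker list, and the 5 most like Anxa2 and Clu; the remaining rules for Spp1 could not be applied. Members and lists were chosen with earlier results of these data known, and motifs and neighbouring genes were looked up after the values were seen. Protein sequences were not used here. Alternatives covered the scaling, floor, filter, variance model, array weights, block and leaving out each array.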

Additional observations from a re-analysis of the deposited data

How the results depend on the processing

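Under the 15 alternatives, 0 member probe sets passed the threshold, with a lowest adjusted p of 0.160. Of 179 pairs of a tested probe set and an alternative, 174 kept the direction and the side of the threshold, and 5 reversed the direction. Changes of the filter, the intensity trend, the robust variance fit and the replicate block leave each log2 difference as it was. So does the floor at the 5th percentile, as no tested member value lay under the main floor. In pairs with these alternatives the direction could not reverse, so their agreement in direction is no evidence of stability. The reversals were 0.56 and 0.09 for Anxa1 on 93038_f_at without control replicate 1 and 3, and, for Anxa3, 0.12 and 0.05 without control replicate 1 and 3 and 0.04 without CF replicate 2. With single arrays left out, these ran from -1.26 to 0.56 for Anxa1 and from -1.20 to 0.12 for Anxa3. The median log2 difference of the members, -0.33, was -0.56 with array weights and ran from -0.75 to -0.050 when single arrays were left out; the cause was not tested. With the replicate block, that median was -0.33, as it must be when each suffix has an array in both groups. The number of members called was 0, and no call on a member changed. Over all probe sets, calls numbered 5, and 10 with the replicate block, 10 with the floor at the 40th percentile, 0 with no filter, 3 with no intensity trend, 12 with array weights and 1 to 11 when single arrays were left out. With 3 arrays per group and no block, the 95% intervals of Anxa2, Anxa3, S100a6, the shared S100a11 set, both tested Anxa1 sets and the dimmer S100a10 set were over 2 log2 units wide. With the replicate block the SE was smaller for every tested set except Anxa2. Examples are S100a6 (0.21), the dimmer tested Anxa1 set (0.26) and the shared S100a11 set (0.36). For Anxa2 it was larger, at 0.59 against 0.53 without the block.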
